A study of Rattus norvegicus with 65 samples.

Results

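The effect of adding PYY3-36 to liraglutide on hypothalamic mRNA was examined in 10 of the 65 animals sequenced, 5 PYY3-36 + liraglutide-treated and 5 liraglutide-treated. All 10 were taken by their labels from the second experimental period (batch B), and all 38513 genes of the count table were considered, of which 20628 had enough counts to be tested. The animals were adult male Wistar rats, 9 to 10 weeks old at the start, that were made obese with 6 weeks of high-fat diet. Both groups received 0.4 mg/kg/day of liraglutide once daily under the skin. Through a subcutaneous osmotic minipump, one group additionally received 0.1 mg/kg/day of PYY3-36 and the other saline. Both groups were free to choose between high- and low-fat diet, and tissue was taken after 4 weeks of treatment and 10 h of fasting. Each animal gave 1 library of the whole hypothalamus, so that single nuclei were not separated. Further batch B animals entered the model for the spread between animals, namely 5 saline-, 4 PYY3-36-, 6 sham- and 3 RYGB-treated rats.

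PYY3-36 is the cleaved form of peptide YY, a hormone that L cells of the lower gut release after a meal. It binds with preference to the Y2 receptor (Npy2r), an inhibitory receptor that sits on the NPY- and AgRP-producing neurons of the arcuate nucleus, which drive feeding. Liraglutide is a long-acting analogue of the gut hormone GLP-1 and activates the GLP-1 receptor (Glp1r), among others on the POMC- and CART-producing neurons that restrain feeding. The GLP-1 receptor raises and the Y2 receptor lowers the second messenger cyclic AMP. The comparison asks what the second hormone adds to gene expression in animals that already receive the first.

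Sequencing depth was similar in both groups, with 20798887 to 27241394 counts on genes in liraglutide- and 23043055 to 35011146 in PYY3-36 + liraglutide-treated animals. The content of the dissected tissue was not. Hypocretin (Hcrt), the orexin precursor of the lateral hypothalamus, ranged from 5.60 to 9174 normalized counts within the liraglutide group and from 12.8 to 17830 within the combination group. Vasopressin (Avp) was at 72.1 normalized counts in liraglutide replicate 3 and at 52.6 in combination replicate 8, against 990 to 21710 in the other 8 animals. In the same 2 libraries Sim1, a transcription factor of the paraventricular nucleus, was at 3.38 and 6.88, against 77.5 to 247 in the others. Otp was at 0 and 4.92 in them, against 23.5 to 530 in the others. In contrast, Nkx2-1, a marker of the ventral hypothalamus, was at 102 to 448 in all 10 and Crh at 72.8 to 324. The presence of these 2 transcripts does not say which nuclei were sampled. The 12 markers of hypothalamic neurons summed to 1160 to 124200 in liraglutide- and 1891 to 186000 in combination-treated animals. These sums were set largely by few peptide genes. Melanin-concentrating hormone (Pmch) was at 95630 in liraglutide replicate 2 and at 139800 in combination replicate 10, the libraries with the highest sums. In combination replicate 6, with a sum of 38090, Avp and oxytocin (Oxt) were at 21710 and 14640 and Hcrt was at 33.4.

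Neighbouring tissue differed likewise. The 10 striatal markers summed to between 9036 and 41110 normalized counts with liraglutide and between 10810 and 55670 with the combination. The 10 meningeal markers reached 38960 in liraglutide replicate 1 and stayed between 2722 and 6173 in the other 9 libraries. A list of 12 liver genes, written after the values were seen, summed to 5565 in liraglutide replicate 3 and to at most 1057 elsewhere. Prolactin (Prl), the defining transcript of the anterior pituitary, was at 0 in all 10 libraries, while the 10 pituitary markers together reached 7197 in liraglutide replicate 1 and at most 372.7 in the combination group. Results that moved with these markers are given with their values, and their part in each result was not tested. In whole tissue, fewer cells of a type and less RNA per cell cannot be told apart.

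**Figure D1:**
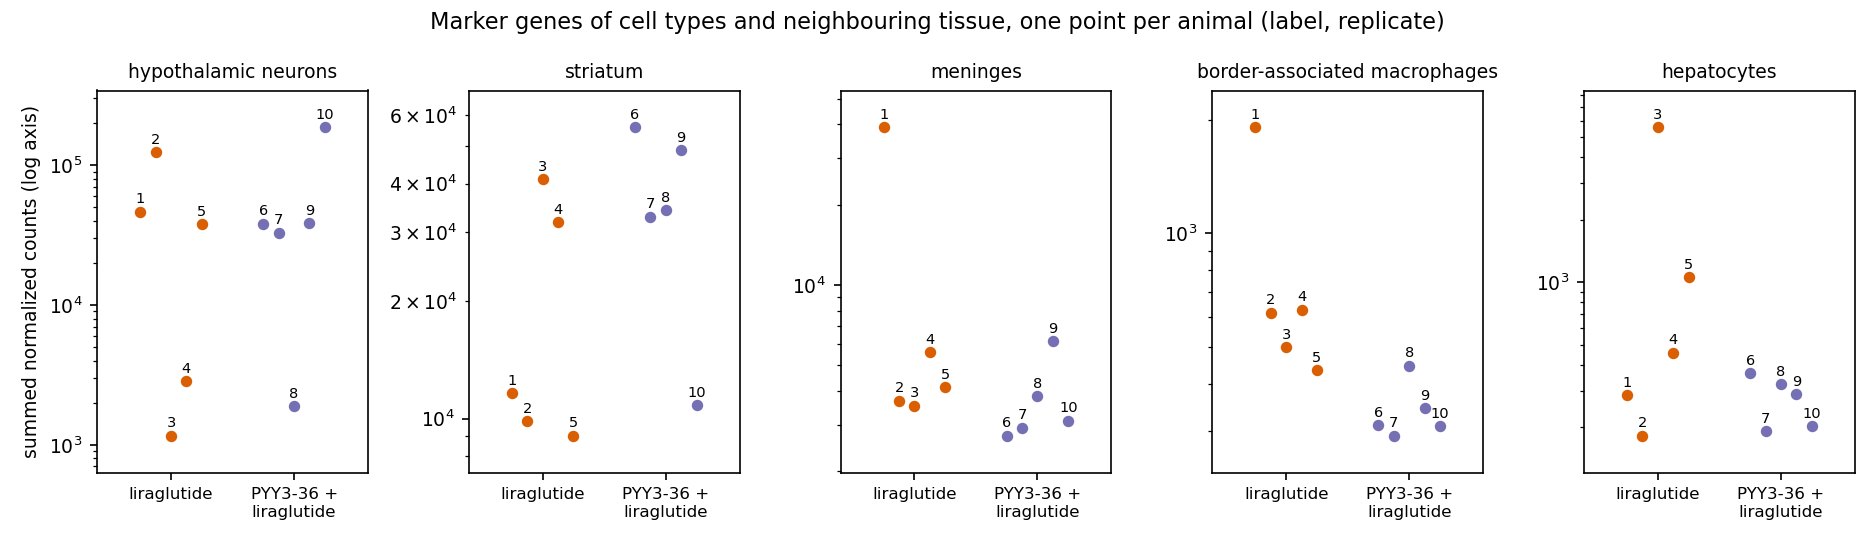
Summed normalized counts (log axis) of marker genes of hypothalamic neurons, striatum, meninges, border-associated macrophages and hepatocytes in each of the 10 animals, numbered by replicate. Liraglutide replicate 1 stood at 38960 for meninges and 1906 for border-associated macrophages and liraglutide replicate 3 at 5565 for hepatocytes, each above the other 9 animals. The sums for hypothalamic neurons were set largely by few peptide genes, such as Pmch at 139800 of 186000 in combination replicate 10.

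No gene was regulated between PYY3-36 + liraglutide- and liraglutide-treated animals (0 of 20628 genes, 0%) when regulation was defined by an adjusted p under 0.05 together with a log2 fold change beyond -1 or 1. Without the fold threshold the count was 0 as well, and the smallest adjusted p of edgeR's quasi-likelihood test was 0.642. At an unadjusted p under 0.05, 488 genes (2.37%) were higher and 739 (3.58%) lower in the combination group, 5.95% of the genes tested. DESeq2 on the same libraries called 3 genes, all lower in the combination group, which are described next. Fitted on the 10 compared libraries alone, edgeR called 1 gene, LOC100362965, with an adjusted p of 0.00229.

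The median log2 fold change over all genes was 0.00642 and its median standard error 0.20. Of all estimates, 51.2% were positive. For 14457 genes (70.1%) the 95% interval of the log2 fold change lay within -1 and 1. For the others the precision did not allow this statement. An absolute log2 fold change over 1 was estimated for 1127 genes, none of which passed the adjusted test. The share of higher estimates among the genes at an unadjusted p under 0.05 was 39.8%. Without liraglutide replicate 1 it was 50.9%, with 361 genes higher and 348 lower.

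**Figure D2:**
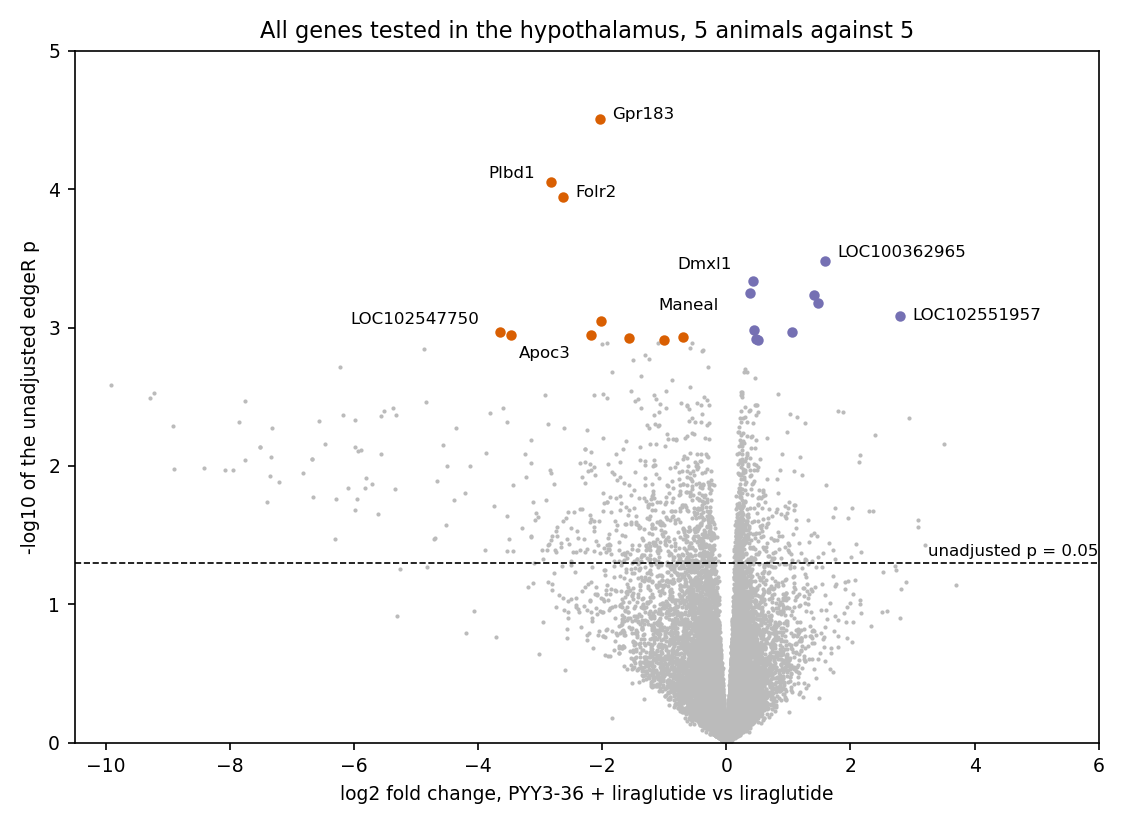
Log2 fold change (x axis) of PYY3-36 + liraglutide- vs. liraglutide-treated animals against the -log10 of the unadjusted edgeR p (y axis) for 20628 genes. Coloured points are the 10 genes with the smallest p in each direction, led by Gpr183 with p = 3.11e-05, and none had an adjusted p under 0.642.

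Gpr183, Plbd1 and Folr2, all with lower estimates in the combination group, had the smallest p values of the comparison. Gpr183, an oxysterol receptor that guides the migration of immune cells, ranked first. It lies on chromosome 15 (108364701 to 108376221, Rnor_6.0). Its normalized counts were 64.8, 18.7, 27.1, 39.2 and 75.2 in liraglutide- and 12.1, 6.54, 10.8, 11.8 and 12.8 in PYY3-36 + liraglutide-treated animals. Every combination-treated animal was below every liraglutide-treated one. The log2 fold change was -2.04 (SE 0.40, 95% interval -2.86 to -1.21), with an adjusted p of 0.642 in edgeR and 0.0125 in DESeq2.

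Plbd1, a lysosomal phospholipase-like protein of myeloid cells, was measured at 77.0, 13.2, 13.5, 17.9 and 20.3 normalized counts with liraglutide. With the combination the values were 4.05, 0.934, 5.90, 0.657 and 8.51, and again the groups did not overlap. The log2 fold change was -2.83 (SE 0.61, edgeR adjusted p = 0.775, DESeq2 adjusted p = 0.0265). Folr2, the folate receptor of tissue macrophages, was at 86.0, 26.9, 28.2, 20.2 and 8.45 with liraglutide. It was at 4.55, 0.934, 10.8, 1.97 and 9.57 with the combination, where 2 animals were above the lowest liraglutide-treated one. Its log2 fold change was -2.63 (SE 0.58, edgeR adjusted p = 0.775, DESeq2 adjusted p = 0.0265). For both genes the highest value belonged to liraglutide replicate 1, the library with the most meningeal transcripts. Without that animal the log2 fold change was -2.03 for Plbd1, -1.92 for Folr2 and -1.87 for Gpr183. A model of all 65 libraries with group and batch terms, in which the combination-treated animals of both batches entered, gave -1.47, -1.06 and -1.01.

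Folr2 belongs to the macrophages at the borders of the brain, which live along vessels and in the meninges. A list of 10 genes of these cells was written after the values were seen and holds Folr2, so that its counts are a description. All 8 genes tested had negative estimates, with a median log2 fold change of -1.35 and 7 at an unadjusted p under 0.05. Over all genes the median was 0.00642 and the share lower at this p 3.58%. The scavenger receptor Stab1 was at 703, 294, 244.5, 283 and 182 normalized counts with liraglutide and at 119, 125, 211, 104 and 154 with the combination (log2 fold change -1.25, SE 0.35). The mannose receptor Mrc1 was at 418 in liraglutide replicate 1, but the other 4 liraglutide-treated animals, at 56.4 to 124, overlapped the combination group, at 48.6 to 105. The summed list ran from 433.7 to 1906 with liraglutide and from 291.1 to 446.6 with the combination. Its median was -0.78 without liraglutide replicate 1 and -0.46 in the model of all 65 libraries with group and batch terms. The meningeal list, where all 10 genes had negative estimates, went from a median of -1.63 to -0.01 without that animal.

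Parp9, an ADP-ribosyltransferase of the interferon response, was at 502, 367, 307, 275.5 and 461 normalized counts with liraglutide and at 236, 196, 228, 233 and 271 with the combination. The groups did not overlap, and the log2 fold change was -0.70 (SE 0.19, edgeR adjusted p = 0.826). The interferon-inducible GTPase Mpa2l (Gbp6 in the RefSeq table) had a log2 fold change of -1.57 (SE 0.43) and C5ar2, a complement receptor, one of -1.01 (SE 0.28), both with an adjusted p of 0.826 in edgeR and with overlapping groups.

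The remaining genes of the lower set were expressed at low levels. Murc (also Cavin4), a protein of muscle caveolae, was at 7.52 to 41.4 normalized counts with liraglutide and at 1.40 to 13.8 with the combination (log2 fold change -2.02, SE 0.54). Apoc3, a liver apolipoprotein, was at 47.0, 9.90, 141, 7.84 and 43.9 with liraglutide and at 2.02, 4.67, 1.97, 4.60 and 8.51 with the combination (log2 fold change -3.48, SE 0.95). The top value again belonged to liraglutide replicate 3, where albumin (Alb) stood at 2989 normalized counts, against 25.5 to 551.5 in the other 9 animals. Alb was thus detected in all animals, and Ahsg, a protein made almost entirely by liver, was at 514 in this library, at 5.60 and 71.8 in replicates 4 and 5, and at 0 in the other 7. The long noncoding RNA genes LOC102547750 (log2 fold change -3.64, SE 0.99) and LOC108349629 (-2.18, SE 0.60) did not exceed 22.0 normalized counts in any of the 10 animals.

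**Figure D3:**
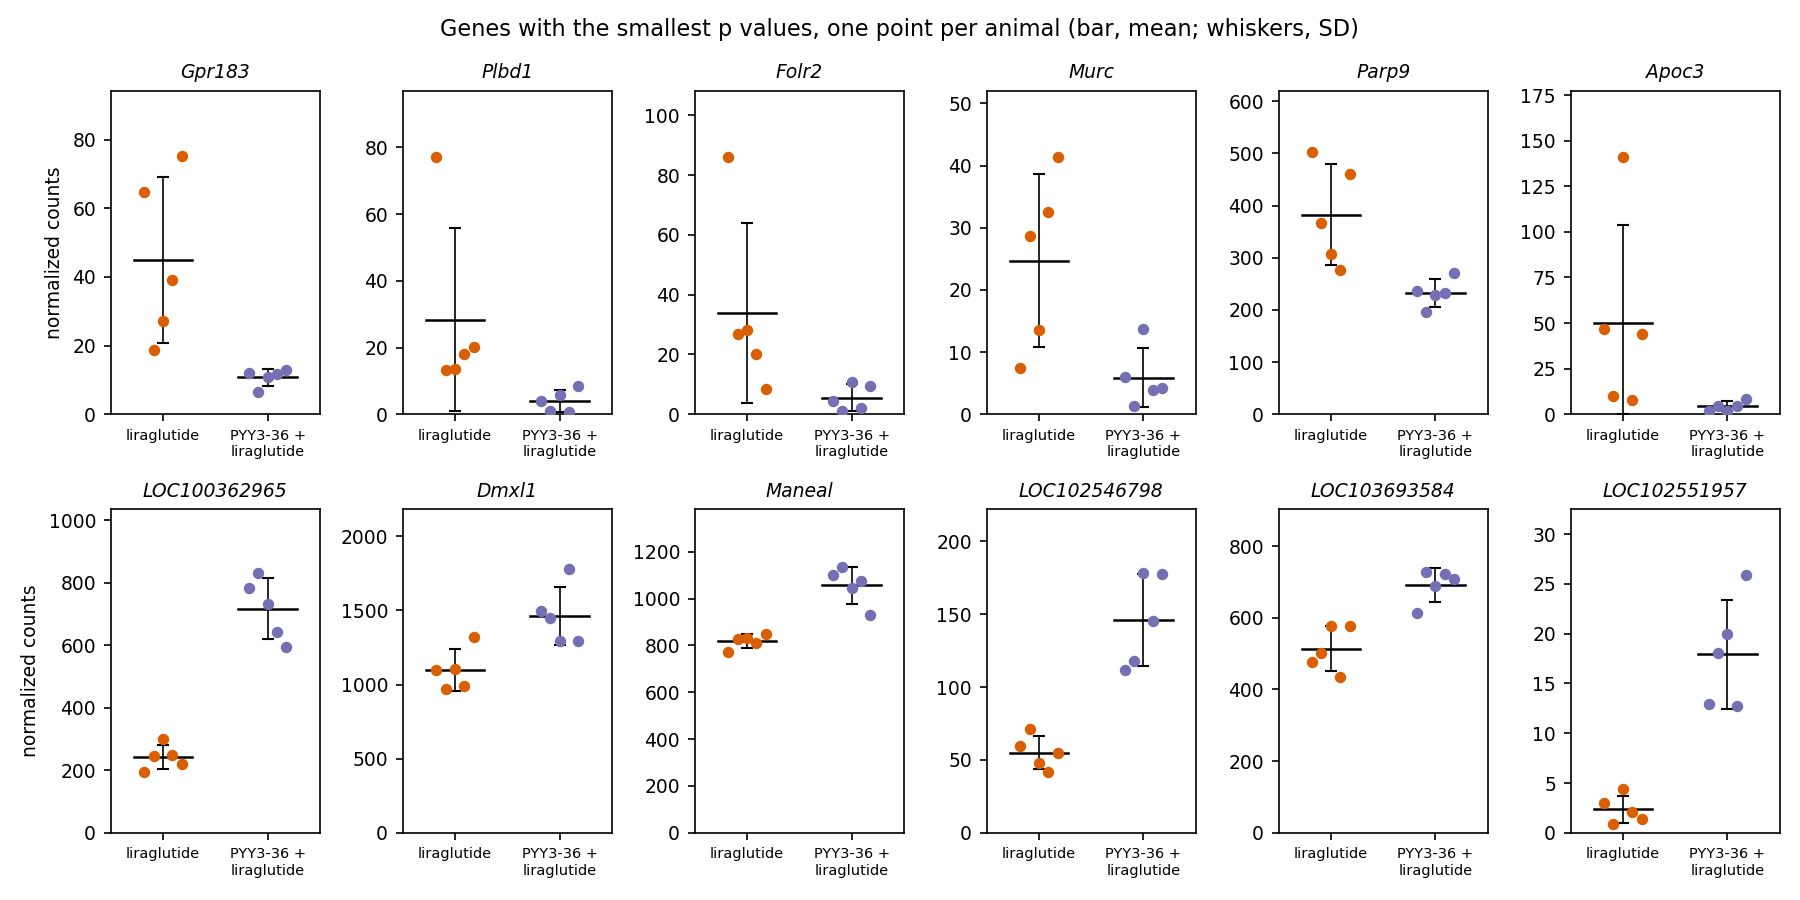
Normalized counts (y axes, starting at 0) of 12 of the genes with the smallest p values in liraglutide- and PYY3-36 + liraglutide-treated animals, with 1 point per animal, the mean as a bar and the SD as whiskers cut at 0. Gpr183 is at 45.0 ± 24.2 against 10.8 ± 2.5 and LOC100362965 at 242 ± 38.9 against 717 ± 97.1 (SD, n = 5 each).

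Among the genes higher in the combination group, 7 of the 10 with the smallest p had non-overlapping groups, against 70 of all 20628 genes tested (0.339%). Genes chosen by a small p tend to have such groups, so this count is a description. Of the 7 genes, 6 carried no name beyond a locus number. LOC100362965 on chromosome 17 (61332160 to 61332430, Rnor_6.0) led them. It was annotated as protein coding in the table, but the later RefSeq table (GRCr8) calls it Snurf-ps2, a pseudogene of Snurf, so that reads shared with that gene could be split between both. Its normalized counts were 195, 246.5, 299, 249 and 219 with liraglutide and 783, 832, 731, 644 and 596 with the combination. The log2 fold change was 1.58 (SE 0.38, edgeR adjusted p = 0.826).

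Over all 65 animals of the series this gene fell at 2 separate levels. Scaled to the library total (CPM), its values were between 5.79 and 12.7 in 42 animals and between 19.7 and 41.6 in 23. All 5 liraglutide-treated animals were at the lower and all 5 combination-treated animals of batch B at the upper level. In the combination group of batch A, 2 of 5 animals were at the upper level. So were 3 of 5 saline-treated, 2 of 6 sham-treated and 4 of 4 PYY3-36-treated animals of batch B, but 0 of 3 RYGB-treated ones. The level thus differed between animals that had the same treatment.

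The long noncoding RNA genes LOC102546798 (194971836 to 195014151), LOC108349634 (194932233 to 194969252) and LOC108349633 (194846855 to 194855543) lie next to each other on the minus strand of chromosome 1 (Rnor_6.0). Upstream on the same strand lie Snrpn (195074328 to 195096460) and Snurf (195074328 to 195096694), in a region known for imprinting. LOC102546798 was at 59.2, 71.1, 48.1, 41.8 and 54.5 normalized counts with liraglutide and at 112, 118, 178, 145 and 178 with the combination (log2 fold change 1.42, SE 0.36). Those of LOC108349634 ran from 38.7 to 71.3 with liraglutide and from 110 to 180 with the combination, with a log2 fold change of 1.47 (SE 0.38), and LOC108349633 had one of 1.05 (SE 0.29). The 3 genes are neighbours and are not independent observations. LOC102546798 also differed between animals of the same treatment. In saline-treated animals of batch B it was at 2.46, 6.63, 2.64, 3.10 and 7.22 CPM, and those at 6.63 and 7.22 were at the upper level of LOC100362965, as was the one at 2.46. In the combination group of batch A it was at 20.3 and 23.4 CPM in the 2 animals at the upper level and at 6.79 to 10.1 in the other 3. Snrpn itself had a log2 fold change of -0.09 (SE 0.08).

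Named protein-coding genes of the higher set differed by less. Maneal, a Golgi enzyme of the mannosidase family, was at 770.5, 827, 832, 810 and 848 normalized counts with liraglutide and at 1100, 1133, 1044, 1073 and 929.6 with the combination. Groups did not overlap, and the log2 fold change was 0.38 (SE 0.10, edgeR adjusted p = 0.826). Dmxl1, which takes part in the assembly of the vesicular proton pump, had means of 1098 ± 141 and 1463 ± 198 normalized counts (SD, n = 5 each) and a log2 fold change of 0.43 (SE 0.11). Seli (Selenoi), an enzyme of phosphatidylethanolamine synthesis, had one of 0.48 (SE 0.13) and Rsbn1l one of 0.51 (SE 0.14). LOC103693584 (0.44, SE 0.12) and LOC102551957 (2.80, SE 0.74) completed the set, the latter at no more than 25.9 normalized counts. All had an adjusted p of 0.826 in edgeR.

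Over all genes tested, the 5 normalized counts of one group were all above the 5 of the other for 70 genes higher (0.339%) and 63 lower (0.305%) with the combination. The higher ones comprised 55 protein-coding genes, 13 long noncoding RNAs and 2 pseudogenes, the lower ones 50, 6 and 7. None of the 20 gene lists held such a gene.

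Receptors of the added hormone did not differ detectably. Npy2r, the preferred target of PYY3-36, was at 440, 239, 272, 143 and 281 normalized counts with liraglutide and at 250, 358.5, 338, 268 and 242.5 with the combination. The combination values lay within those of the liraglutide group, and the log2 fold change was 0.10 (SE 0.32, 95% interval -0.57 to 0.77). Npy1r, the main postsynaptic NPY receptor, was at 392, 287, 274, 316 and 649 with liraglutide and at 386.5, 392, 468, 483 and 318 with the combination (log2 fold change 0.11, SE 0.22, 95% interval -0.35 to 0.57). The feeding receptor Npy5r had a log2 fold change of -0.19 (SE 0.29). Npy4r, the pancreatic polypeptide receptor, was at 0 to 9.34 normalized counts and was not tested, and Ppy was at 0 in all 10 animals. Of the ligands, Npy had a log2 fold change of 0.11 (SE 0.50) and Pyy itself, at 0 to 15.4 normalized counts, one of -0.69 (SE 1.01).

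Dpp4, the peptidase that cleaves peptide YY to PYY3-36 and inactivates GLP-1, had the smallest p of this family (log2 fold change -1.72, SE 0.61, edgeR adjusted p = 0.826). Its normalized count was 224 in liraglutide replicate 1 and 15.8 to 45.9 in the other 4 liraglutide-treated animals, compared with 12.8 to 33.5 in the combination group. Without liraglutide replicate 1 the log2 fold change was -0.57.

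Glp1r, the receptor of liraglutide, was measured less precisely than the Y receptors. It was at 105, 55.0, 112, 21.3 and 60.0 normalized counts with liraglutide and at 75.9, 83.1, 64.9, 50.6 and 42.5 with the combination. All combination values lay between the lowest and the highest liraglutide value. The log2 fold change was -0.14 (SE 0.63, 95% interval -1.44 to 1.15), an interval that reaches beyond -1 and 1. Of 12 tested receptors and ligands of GLP-1 and related gut peptides, 6 had positive and 6 negative estimates, and 0 were at an unadjusted p under 0.05. The smallest p belonged to Ramp3, a partner of the calcitonin receptor in the amylin receptor, with a log2 fold change of -1.03 (SE 0.56). The glucose-dependent insulinotropic peptide receptor Gipr (-0.21, SE 0.34), the calcitonin receptor Calcr (0.16, SE 0.86) and the ghrelin receptor Ghsr (-0.25, SE 0.86) had wide intervals.

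Feeding peptides of the arcuate nucleus varied widely between animals of the same treatment. Pomc, the precursor of the appetite-suppressing melanocortins, was at 4046, 686, 93.5, 71.7 and 390 normalized counts with liraglutide and at 56.7, 210, 59.0, 765 and 120 with the combination. A single animal, liraglutide replicate 1, stood above all others. Pomc is also a pituitary transcript, and in this library the pituitary hormone subunits Cga and Tshb were at 4801 and 1988 normalized counts, against at most 449.7 and 95.7 in the other 9. The pituitary markers Fshb (10.3) and Gata2 (214) were highest in this library as well. In contrast, Prl, Gh1, Pou1f1 and Ghrhr were at 0 in it, and its Lhb (62.0) and Tbx19 (121) were exceeded in other animals. Agrp, which is expressed in the arcuate nucleus, was also highest in this library (198). The part of pituitary or of arcuate tissue in the Pomc value was not tested. The log2 fold change was -2.09 (SE 1.17) and -0.33 without this animal. Agrp, the melanocortin antagonist that stimulates feeding, was at 198, 33.0, 10.1, 2.80 and 41.4 with liraglutide and at 11.6, 6.54, 15.7, 41.7 and 15.9 with the combination. Its log2 fold change was -1.58 (SE 0.96) and, without liraglutide replicate 1, -0.21. The same animal stood apart for the leptin receptor Lepr, at 319.5 against 71.8 to 91.8 in the other liraglutide-treated and 39.9 to 83.5 in the combination-treated animals. Lepr had a log2 fold change of -1.05 (SE 0.45, edgeR adjusted p = 0.826), and the estimate was -0.36 without that library.

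The melanocortin receptors Mc3r (-0.19, SE 0.85) and Mc4r (0.58, SE 0.41) had intervals that included 0. Cartpt, which encodes the satiety peptide CART, was at 4407, 5505, 888, 205 and 1785 normalized counts with liraglutide and at 1485, 1730, 1194, 2793 and 5935 with the combination (log2 fold change 0.05, SE 0.76). Of the 20 arcuate genes 8 had positive and 12 negative estimates, with a median of -0.15, and 2 were lower at an unadjusted p under 0.05, beside 3.58% of all genes. These were Lepr and the dopamine transporter Slc6a3, the latter at 708 and 381 normalized counts in liraglutide replicates 1 and 4 and at most 26.3 in the other 8 animals.

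**Figure D4:**
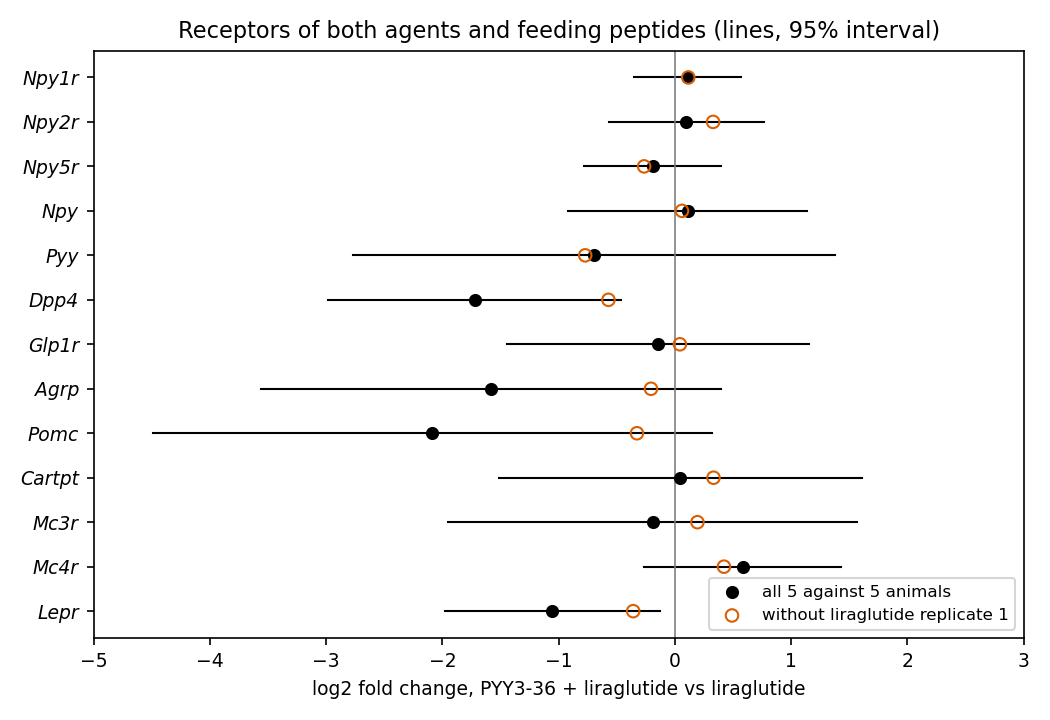
Log2 fold changes (x axis) of receptors, ligands and feeding peptides in PYY3-36 + liraglutide- vs. liraglutide-treated animals, with lines for the 95% interval and open circles for the estimate without liraglutide replicate 1. The estimates of Pomc, Agrp, Lepr and Dpp4 moved from -2.09, -1.58, -1.05 and -1.72 to -0.33, -0.21, -0.36 and -0.57.

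Because both receptors act on cyclic AMP in opposite directions, the genes that carry the element bound by the cyclic AMP-responsive factor CREB were examined. The full element TGACGTCA reads the same on both strands. It was found in 525 of 27457 rat promoters of the RefSeq table (1.91%; GRCr8, 250 bases before to 50 after the start of each gene) and in 382 of the 13886 promoters of genes tested here (2.75%). Among the named genes, 53 had a promoter in that table and 2 of them, Cartpt and Ppargc1a, held the element. Both promoters are shown 5′ to 3′ on the strand of the gene, with the element in capitals. It starts 142 bases before the start of Cartpt (chr2:32991186-32991485, minus strand) and 181 bases before that of Ppargc1a (chr14:63634058-63634357, plus strand).
Cartpt: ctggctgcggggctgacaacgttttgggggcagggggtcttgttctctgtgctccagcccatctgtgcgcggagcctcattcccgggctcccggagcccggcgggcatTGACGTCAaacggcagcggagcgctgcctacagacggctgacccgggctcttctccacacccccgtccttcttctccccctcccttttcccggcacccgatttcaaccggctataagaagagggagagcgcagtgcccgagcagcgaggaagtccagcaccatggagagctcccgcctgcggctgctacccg
Ppargc1a: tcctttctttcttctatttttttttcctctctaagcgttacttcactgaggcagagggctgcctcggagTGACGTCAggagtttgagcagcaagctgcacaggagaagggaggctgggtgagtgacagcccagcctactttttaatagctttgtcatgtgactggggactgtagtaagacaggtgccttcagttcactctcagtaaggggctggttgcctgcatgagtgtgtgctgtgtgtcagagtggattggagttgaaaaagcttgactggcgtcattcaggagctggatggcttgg

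Ppargc1a, the transcriptional coactivator of mitochondrial biogenesis, was at 723.5, 918, 1111, 822.5 and 726 normalized counts with liraglutide and at 1138, 1151, 1029, 909 and 976 with the combination. Of the liraglutide-treated animals, 2 were within the range of the combination group. The log2 fold change was 0.29 (SE 0.11, edgeR adjusted p = 0.826). Of the 383 genes tested with the element, 0 passed the adjusted test, 10 were higher and 4 lower at an unadjusted p under 0.05, and the median log2 fold change was 0.04. The 13918 genes tested with any promoter in the table had 319 higher, 511 lower and a median of 0.01. The match is one of letters in this window and does not say that the element is used. In the list of 26 cyclic AMP signalling genes, 17 had positive and 9 negative estimates (median 0.07). Rapgef3, a cyclic AMP-activated exchange factor, and Gnai2, a subunit of the inhibitory G protein, had log2 fold changes of -0.27 (SE 0.11) and -0.21 (SE 0.09).

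Other hypothalamic nuclei showed the same picture of wide intervals. Of the 14 tested genes of the paraventricular and supraoptic nuclei, 10 had positive and 4 negative estimates and 0 reached an unadjusted p of 0.05. Avp (1.18, SE 1.48) and oxytocin, Oxt (0.72, SE 1.44), had the widest intervals among them, whereas Crhr1, the receptor of corticotropin-releasing hormone, was at 0.01 (SE 0.20). In the lateral hypothalamus 7 of 11 estimates were positive, with Hcrt at 0.56 (SE 1.56) and melanin-concentrating hormone, Pmch, at 0.36 (SE 1.71). The list for the ventromedial nucleus held Gpr149, an orphan receptor, at 264, 215.5, 470, 119 and 104 normalized counts with liraglutide and at 707, 666, 486, 570 and 264 with the combination. Only 1 combination-treated animal overlapped the liraglutide group, and the log2 fold change was 1.21 (SE 0.45, edgeR adjusted p = 0.826). Nr5a1, which defines this nucleus, was at -0.24 (SE 1.19). Gpr149 was highest in liraglutide replicate 3 and combination replicate 6, where Nr5a1 was at 7.89 and 2.02 normalized counts. The striatal sums of these libraries, 41110 and 55670, were the highest of their groups. In contrast, Gpr149 was at 119 in liraglutide replicate 4, with a striatal sum of 31810, and at 570 in combination replicate 9, with Nr5a1 at 214. The part of striatal tissue in the Gpr149 values was not tested.

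Genes expressed throughout the tissue were measured more precisely. For the 74 subunits of oxidative phosphorylation the 95% intervals were all within -1 and 1, with 38 positive and 36 negative estimates, a median of 0.00362 and a range of -0.15 to 0.16. All 76 cytosolic ribosomal proteins had negative estimates, with a median of -0.13 and a range of -0.24 to -0.01. Of these, 2 were at an unadjusted p under 0.05, beside 3.58% of all genes that were lower at this p. Rps4x was at 8035, 8786, 8085, 8769 and 7092 normalized counts with liraglutide and at 6593, 6334, 6108, 6828 and 8367 with the combination. The other combination-treated animals were below all liraglutide-treated ones, and replicate 10 was above 3 of them. The ribosomal median moved to -0.25 without this animal. Ribosomal proteins are expressed together, so that 76 genes do not give 76 independent observations.

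In signalling pathways 0 genes passed the adjusted test. Of 24 insulin and PI3K-Akt genes, 18 had positive and 6 negative estimates (median 0.07), and 3 were higher at an unadjusted p under 0.05, beside 2.37% of all genes. The kinases Gsk3b (0.20, SE 0.09), Pik3cb (0.22, SE 0.10) and Pdpk1 (0.35, SE 0.17) were these genes. In the leptin and JAK-STAT list 3 of 19 estimates were positive and 16 negative (median -0.14), and Lepr was the only one at an unadjusted p under 0.05. The AMPK list was split into 7 and 9 (median -0.03), the 16 genes of the glucocorticoid response into 5 and 11 (median -0.12) and the thyroid hormone axis into 11 and 3 (median 0.10).

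Serotonin receptors, through which serotonin restrains feeding, had the largest median of the 20 lists (0.48), and 11 of the 12 tested had positive estimates. Htr2c, the receptor most closely tied to satiety, was at 2812, 3885, 2758, 2330 and 3810 normalized counts with liraglutide and at 4557, 4652, 2977, 4197 and 3862 with the combination (log2 fold change 0.39, SE 0.20). Htr4 had a log2 fold change of 1.0 (SE 0.57) and Htr2a one of 1.01 (SE 0.60). None was at an unadjusted p under 0.05. Striatal markers moved in the same direction, with 10 of 10 positive estimates and a median of 1.10, and their sum was 31810 or more in 4 of the combination-treated animals and 2 of the liraglutide-treated ones. Drd1, the dopamine receptor that defines a class of striatal neurons, was at 186, 168, 2605, 987 and 215 with liraglutide and at 4144, 2008, 2223, 2700 and 169 with the combination. The part of striatal tissue in the serotonin receptor values was not tested.

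The suprachiasmatic and clock list had 10 positive and 11 negative estimates, from -1.20 to 1.77, and a median of -0.00475, with 17 of 21 intervals within -1 and 1. Clock was at 0.14 (SE 0.07) and Nr1d1, its repressing partner in the circadian loop, at -0.15 (SE 0.09). Immediate early genes, which respond to neuronal activity, were split into 10 and 15 (median -0.10), with Fosb at 0.69 (SE 0.48) and Ier3 at -0.64 (SE 0.30). Of the 24 genes of endoplasmic reticulum stress and heat shock 19 had positive estimates (median 0.05). In cholesterol and fatty acid synthesis 18 of 22 were negative (median -0.09), among them Dhcr7 (-0.36, SE 0.16), which makes the last step to cholesterol, and the desaturase Scd (-0.38, SE 0.17). The citrate-cleaving enzyme Acly was at 0.38 (SE 0.20).

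Most genes of the glial and vascular lists had negative estimates, and 0 passed the adjusted test. Over all genes tested, 51.2% of the estimates were positive, and 3.58% of the genes were lower at an unadjusted p under 0.05. Markers of a cell type are expressed together, so that the members of a list are not independent observations. Of the 18 microglial and inflammatory genes 16 were negative (median -0.19) and 0 were at an unadjusted p under 0.05, and the microglial receptor P2ry12 was at 0.13 (SE 0.17). Astrocyte markers had 8 of 9 negative estimates (median -0.26), with the intermediate filament Gfap at -0.82 (SE 0.35) and Aldh1l1 at -0.56 (SE 0.23). Gfap was at 36080 normalized counts in liraglutide replicate 1, 8118 to 22460 in the other liraglutide-treated and 6868 to 16500 in the combination-treated animals. Aldh1l1 was at 1730, at 657 to 1015 and at 571 to 734 in the same order. Oligodendrocyte markers were negative in 10 of 10 (median -0.17) and endothelial markers in 7 of 8 (median -0.05). Tanycytes, which line the third ventricle, and ependyma had a median of -0.92, with the filament Vim at 11630 normalized counts in liraglutide replicate 1, 1360 to 3424 in the other liraglutide-treated and 921.5 to 3520 in the combination-treated animals. Markers of the choroid plexus (median -0.60), habenula and thalamus (-0.57), posterior pituitary and median eminence (-0.50), cortex (-0.01) and blood (0.40) did not pass either. Of 8 tested anterior pituitary markers 7 had negative estimates, with 2 at an unadjusted p under 0.05.

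Finally, the effect of PYY3-36 on top of liraglutide was set against its effect without liraglutide, in the 4 PYY3-36- and 5 saline-treated animals of batch B. PYY3-36 alone regulated 0 genes at an adjusted p under 0.05, with a smallest adjusted p of 0.052 in edgeR. At an unadjusted p under 0.05 there were 3251 genes, beside 1227 for the combination against liraglutide. The difference between both effects was tested as an interaction and passed for 6 genes (0.0291%), while 3259 genes (15.8%) were at an unadjusted p under 0.05. Single transcripts also varied widely among the PYY3-36-treated animals. Pomc was at 4073 and 4069 normalized counts in PYY3-36 replicates 1 and 3, and at most 211 in the other PYY3-36- and saline-treated animals. Slc6a3 was at 1960 and 3361 in these replicates, at 1.08 and 0.838 in replicates 2 and 4, and at 0 with saline. The part of tissue content in these counts of genes was not tested. Gpr183 was at 48.3, 42.1, 47.3 and 38.6 normalized counts with PYY3-36 and at 4.09, 23.1, 17.2, 26.4 and 36.2 with saline, so that its estimate was positive without liraglutide (1.03, SE 0.40) and negative with it (-2.04). The difference was -3.06 on the log2 scale (edgeR adjusted p = 0.0452). Axl, a receptor kinase of phagocytes and astrocytes, had estimates of 0.82 without and -0.37 with liraglutide (adjusted p = 0.0452). Opposite signs were also found for LOC103693584 (-0.66 and 0.44, adjusted p = 0.0255), Maneal (-0.38 and 0.38), the ubiquitin ligase March9 (-0.52 and 0.22) and Apoo (-0.46 and 0.18), a component of the mitochondrial contact site complex, the last 3 with an adjusted p of 0.0452 in edgeR. Genes chosen by the size of this difference tend to have opposite signs, so the signs are a description. For none of the 6 did either effect alone reach an adjusted p under 0.05 in edgeR.

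Leaving out single animals moved this count. It became 0 without liraglutide replicate 1 or 4 or combination replicate 7 or 9, and 1 without combination replicate 6 or 10. It was 5 and 9 without liraglutide replicate 5 and combination replicate 8, 13 without liraglutide replicate 2 and 240 without liraglutide replicate 3. Without PYY3-36 replicate 1, 2 or 3 it was 0 and without replicate 4 it was 66. Without the saline-treated replicates 4 to 8 it was 4, 2, 1, 10 and 0. DESeq2 called 419 genes, and edgeR on the 19 libraries of the 4 infusion groups called 0.

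**Figure D5:**
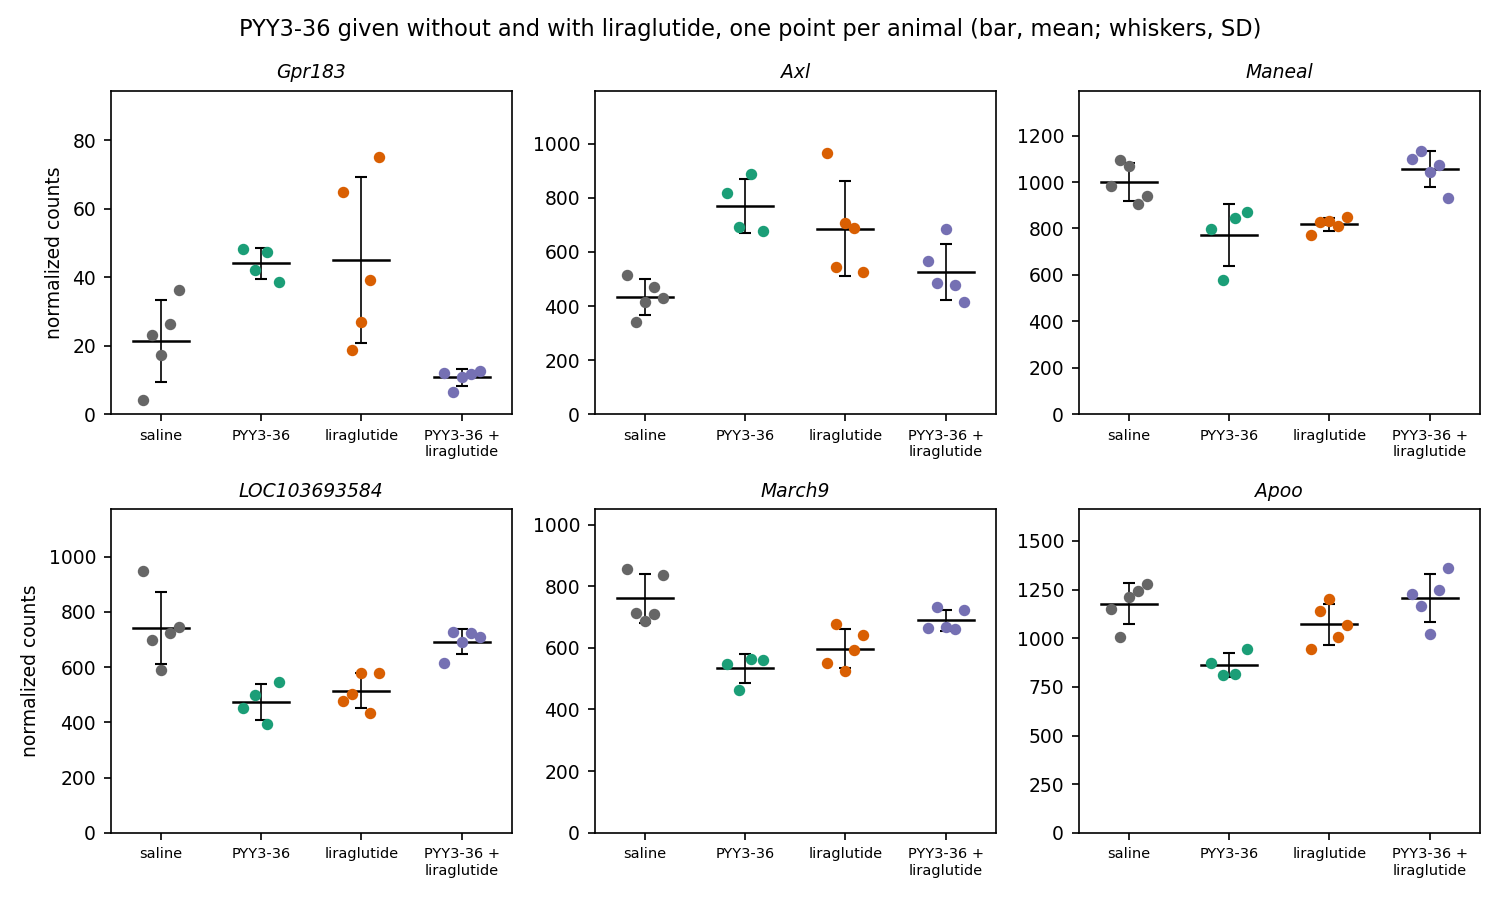
Normalized counts (y axes, starting at 0) of the 6 genes with an interaction in saline-, PYY3-36-, liraglutide- and PYY3-36 + liraglutide-treated animals of batch B, with 1 point per animal, the mean as a bar and the SD as whiskers. Gpr183 and Axl stood higher with PYY3-36 than with saline and lower with the combination than with liraglutide, and the other 4 genes the other way round. The genes were chosen by this difference, which favours opposite directions.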

How the data were processed

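Total hypothalamic RNA was sequenced as stranded, poly-A-selected, single-end libraries, 1 per animal. Per the submitters' processing notes, reads were demultiplexed with bcl2fastq 2.20.0.422, trimmed with cutadapt 1.16, mapped with STAR 2.7.2b to Rnor_6.0 and counted per RefSeq gene with featureCounts 1.6.4. The authors counted reads that map to several places or genes in fractions, so the deposited values are expected counts, and 30.3% of the values above 0 were not whole (tolerance 1e-06). They were rounded here. Genes that share reads with a copy are therefore uncertain.

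Groups came from the labels. All 28 libraries of batch B, in 6 groups, were fitted with edgeR 4.0.16 (R 4.3.3, TMM scaling, filterByExpr at its minimum count 10 and minimum total 15, robust quasi-likelihood F tests, which are two-sided), and p values were adjusted after Benjamini and Hochberg over the 20628 genes tested. Regulated genes were those with an adjusted p under 0.05 whose log2 fold change also lay beyond -1 or 1. The interaction compared the PYY3-36 effect with and without liraglutide in the same fit. Normalized counts are the deposited counts divided by DESeq2 1.42.0 size factors over batch B and are not per length. The tests were checked on counts simulated for each gene on its own, without differences in tissue content between libraries. How the tests perform where tissue content differs was not examined. Each library is a separate animal, and the number of animals limits the precision.

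The genes named were, in each direction, the regulated genes or, with fewer than 10, those with the smallest p up to 10, then the receptors and main arcuate peptides whatever their values, and the gene with the smallest p in each direction of every list. Other list and marker genes given with values were chosen after their values were seen. The comparison and lists were chosen with earlier results of these data known, and the hepatocyte, border-associated macrophage and interferon lists and the promoter search after the values were seen. Alternatives were the compared libraries alone, all 65 libraries, DESeq2 with and without shrinkage, DESeq2 size factors, no filter, and leaving out each of the 10 compared animals. Leaving out liraglutide replicates 1 and 3 together and, for the interaction, each of the PYY3-36- and saline-treated animals was added after seeing the data. The study left out 1 PYY3-36-treated animal, which was not analysed here. Promoter sequences were taken from RefSeq (GRCr8), whose coordinates are not those of Rnor_6.0.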

Additional observations from a re-analysis of the deposited data

Results flagged for a closer look

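In each group of 5 animals, the most extreme value of the 69 named genes was compared with its nearest neighbour by Dixon's criterion. Of 138 groups 16 stood out. For normally distributed values the criterion flags about 1 in 20, which is 6.9 of 138. The counts were not log-transformed, and the genes were partly chosen by a small p and are not independent. The 16 can therefore not be measured against chance. Liraglutide replicate 1 accounted for 7 of the 16, as the highest normalized count for Plbd1 (77.0, next 20.3), Folr2 (86.0, next 28.2), Agrp (198, next 41.4), Pomc (4046, next 686), Lepr (319.5, next 91.8), Dpp4 (224, next 45.9) and Ier3 (425, next 188). The same library had the highest sum of meningeal markers, 38960, and the part of this in the 7 values was not tested.

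Elsewhere in the liraglutide group, Parpbp was highest in replicate 2 (111, next 5.63), Nr1d1 in replicate 4 (2568) and Acly in replicate 3 (10030). In the combination group, replicate 9 was highest for Agrp (41.7) and Pomc (765), and replicate 10 was highest for Nkx2-2 (233) and lowest for Nr1d1 (1596) and Jak2 (438). Replicate 7 was lowest for Sult1a1 (141).

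The effect of PYY3-36 differed with and without liraglutide for 6 genes by the edgeR interaction test. The differences on the log2 scale were 1.10 for LOC103693584, -1.19 for Axl, 0.76 for Maneal, 0.74 for March9, -3.06 for Gpr183 and 0.64 for Apoo.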

How the results depend on the processing

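The count of regulated genes was 0 in the main analysis, 1 on the compared libraries alone, 3 with DESeq2 and 1 with DESeq2 shrinkage. It was 0 in each other alternative, and leaving out 1 animal at a time gave 0 to 0. Without the fold threshold the counts were 1 on the compared libraries alone and 3 with DESeq2, and 0 to 0 when leaving out 1 animal. The interaction count of 6 became 0 on 19 libraries, 0 on all 65 with group by batch, 419 with DESeq2 (144 higher, 275 lower), 1 with DESeq2 size factors, 2 without the filter, 0 without liraglutide replicates 1 and 3, and 0 to 240 when leaving out 1 of the 19 animals.

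Of the alternatives for named genes, 1143 kept direction and call, 4 passed the threshold where the main analysis did not, and 20 changed direction. With all 65 libraries in group and batch terms the log2 fold changes were -0.0160 for Npy1r, -0.0343 for Npy2r, -0.0901 for Cartpt, 0.0458 for Mc3r and 0.36 for Sim1. Without liraglutide replicates 1 and 3 they were -0.0168 for Npy1r and 0.48 for Glp1r. Leaving out 1 animal gave -0.0637 to 0.33 for Npy2r, -0.0860 to 0.42 for Npy, -0.37 to 0.0838 for Glp1r, -0.50 to 0.54 for Cartpt, -0.48 to 0.19 for Mc3r and -1.84 to 1.07 for Parpbp. The medians of 36 lists moved by more than the SD of the list's mean level between animals of a group in 9 cases and by less in 603, but 16 lists changed sign at least once (45 cases). The posterior pituitary list went from -0.50 to 0.27 and the ventromedial list from -0.24 to 0.13 without liraglutide replicate 1, and the lateral hypothalamic list from 0.21 to -0.27 without combination replicate 10. Of the genes at an unadjusted p under 0.05, 39.8% were higher in the main analysis and 50.5% with group and batch terms. The cause was not tested. No paired analysis was possible because the compared groups share no replicate numbers.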

Other observations

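A list of 34 interferon-induced genes was written after Parp9 and Mpa2l had been seen among the leading genes, and it holds both. Of these genes 31 had negative and 3 positive estimates, with a median log2 fold change of -0.37, and 10 were lower at an unadjusted p under 0.05, while 0 passed the adjusted edgeR test. Over all genes tested the median was 0.00642 and the share lower at this p 3.58%. Since the list was written after its leading members were seen, its counts are a description. Mx1, an antiviral GTPase, was at 231, 68.7, 67.0, 101 and 130 normalized counts with liraglutide and at 90.6, 33.6, 42.3, 30.2 and 41.5 with the combination. One combination-treated animal was within the liraglutide range. Psmb8, a subunit of the immunoproteasome, had a log2 fold change of -0.50 (SE 0.16). The summed counts of the list ran from 18450 to 26540 with liraglutide and from 14760 to 19780 with the combination. The median was -0.22 without liraglutide replicate 1, and between -0.48 and -0.12 over the alternatives.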
